A study of Homo sapiens with 4 samples.

Results

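The cyclins, the cyclin-dependent kinases, their inhibitors and the RB-E2F transcription switch form a set of 48 genes, chosen by gene name from a given list. All 48 were found, each as 1 row of the 60675 gene rows in the deposited table. The RNA came from HT1080, an established human fibrosarcoma cell line with an activated NRAS allele, in which KDAC8 (the lysine deacetylase encoded by HDAC8) had been knocked out. The study holds 1 group of 4 replicate libraries (replicates 1 to 4) of total RNA depleted of ribosomal RNA, from cells grown in MEM with serum. No parental line or other control was analysed here, and the labels do not say whether the knockout is 1 clone or whether the replicates were separate cultures. The values below are thus levels in knockout cells, ratios of 1 gene to another in the same library, and differences among the libraries, which may be technical. In bulk RNA, the share of cells that express a gene and the RNA per cell cannot be told apart.

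Cyclins are the activating subunits of cyclin-dependent kinases (CDKs). D cyclins with CDK4 or CDK6, and then E cyclins with CDK2, phosphorylate the pocket proteins RB1, RBL1 and RBL2 and so free E2F factors to transcribe genes for DNA synthesis. A cyclins with CDK2 and CDK1 act in S phase and G2, and B cyclins with CDK1 drive mitosis. Many genes of G2 and mitosis carry a promoter element called CHR (cell cycle genes homology region), which is bound by the MuvB complex, while E2F sites mark many genes of the G1/S transition. CCND1 is a known output of RAS signalling.

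Promoter sequences of the set show both kinds of element. RefSeq promoter windows (GRCh38.p14, from 250 bases before to 50 bases after each annotated start) were matched by symbol for 39 of the 48 members. The E2F motif was searched as TTTCGCGC, TTTGGCGC, TTTCCCGC or TTTGCCGC, the CHR as TTTGAA or TTCGAA, and the CCAAT box as CCAAT, each on both strands. TTCGAA reads the same on both strands, and the other motifs do not. An E2F motif was found in 7 of the 39 members (17.9%) and in 3.99% of 27305 genes with such windows. A CHR was found in 12 members (30.8%) against 19.5% of all genes, and CCAAT in 21 members (53.8%) against 39.7% of all genes. Among the A and B cyclins a CHR was found for CCNB2 and not for CCNA1, CCNA2, CCNB1 or CCNB3. A match describes the letters of the window and does not show binding. A missing match does not show that a gene lacks the element, since other letters and bases outside the windows were not searched.

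The windows below are the last 100 bases before the annotated start of 4 members with a CHR close to the start, shown because the element sits at nearly the same distance in all of them. Capitals mark the CHR and CCAAT motifs, read on either strand. The windows lie at chr15:59105046-59105145 (plus strand) for CCNB2, chr1:154974581-154974680 (plus strand) for CKS1B, chr9:89311095-89311194 (plus strand) for CKS2 and chr5:138331805-138331904 (minus strand) for CDC25C.
CCNB2: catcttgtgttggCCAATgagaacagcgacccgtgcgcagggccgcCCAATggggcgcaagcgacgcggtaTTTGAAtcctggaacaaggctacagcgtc
CKS1B: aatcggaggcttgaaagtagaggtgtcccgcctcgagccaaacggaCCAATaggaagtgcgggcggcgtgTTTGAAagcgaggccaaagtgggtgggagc
CKS2: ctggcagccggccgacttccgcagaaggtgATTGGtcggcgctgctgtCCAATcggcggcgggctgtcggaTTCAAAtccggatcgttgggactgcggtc
CDC25C: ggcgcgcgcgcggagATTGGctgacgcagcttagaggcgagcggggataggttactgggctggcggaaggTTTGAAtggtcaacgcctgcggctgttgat
The CHR began 29 bases before the start in CCNB2 and CKS2 and 30 bases before it in CKS1B and CDC25C. These windows were picked for that distance. Counted from the start, a CHR also began at -29 in TFDP2, -38 in CDC25B, -65 in E2F3 and -69 and -13 in CDK1. CDC25C has 4 RefSeq windows, and the one printed is the one with the CHR upstream of its start.

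Of the 7 members with an E2F motif, 4 with the letters TTTGGCGC are shown in the same way, since they include E2F1 and E2F2, which stood far apart in level, and the pocket protein gene RBL1. Capitals mark the E2F and CCAAT motifs. The windows lie at chr20:33686386-33686485 for E2F1, chr1:23531234-23531333 for E2F2, chr20:37095998-37096097 for RBL1 and chr3:48188418-48188517 for CDC25A, all on the minus strand.
E2F1: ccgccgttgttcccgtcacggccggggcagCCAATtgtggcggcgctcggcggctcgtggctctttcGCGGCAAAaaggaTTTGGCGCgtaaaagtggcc
E2F2: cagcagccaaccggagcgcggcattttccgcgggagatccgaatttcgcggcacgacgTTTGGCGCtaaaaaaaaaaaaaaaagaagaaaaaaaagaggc
RBL1: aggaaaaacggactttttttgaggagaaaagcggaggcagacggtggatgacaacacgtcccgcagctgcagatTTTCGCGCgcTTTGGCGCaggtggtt
CDC25A: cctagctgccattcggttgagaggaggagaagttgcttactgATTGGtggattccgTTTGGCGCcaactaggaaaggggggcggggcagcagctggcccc
In these 4 windows, picked for it, TTTGGCGC begins 20, 42, 16 and 44 bases before the start of E2F1, E2F2, RBL1 and CDC25A. The other 3 members have other E2F letters, TTTCGCGC in CDK1 and TFDP1 and TTTCCCGC in E2F3.

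Levels are given as CPM (expected counts scaled to a TMM effective library size) when libraries are compared for 1 gene, and as CPM per kilobase of annotated exon when genes are compared. The exonic length joins all exons of a gene in GENCODE release 29 (GRCh38) and can exceed the length of the transcripts made. Total counts were 39454210 to 45828807 per library, and a count of 0 allows up to 0.0662 to 0.0742 CPM in a single library (3 counts, counting error only). HDAC8, the targeted gene, stood at 1.98 to 2.53 CPM, and since the edited stretch of the gene is not named in the labels, this level is no check of the knockout. Of 6 mesenchymal markers, 5 reached 1 CPM in all libraries and S100A4 did not (0.272 to 0.594 CPM). None of 10 markers of epithelial, blood, endothelial and muscle cells did, with summed levels of 0.0473 to 0.297 CPM and EPCAM, CDH1, KRT5, CD14 and MYOD1 at 0 in every library.

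The cell cycle genes were nearly all expressed. At 1 CPM or more in all 4 libraries, 45 of the 48 members were detected, whereas 58.8% of protein-coding rows and 21.4% of all rows in the table reached that level. The exceptions were the A cyclin CCNA1, the B cyclin CCNB3 and the kinase CDK3. Members detected had a median of 9.86 CPM per kilobase, against 6.32 for the 11570 coding genes detected. The range ran from CCND1 at 156 ± 2.27 CPM per kilobase, above 98.5% of those coding genes, to CCNA1 at 0.0449 ± 0.0223 (SD, n = 4, here and below). When the 48 members were put in order of mean CPM per kilobase, 34 of the 47 neighbouring pairs had ranges over the libraries that overlapped. The 4 highest, CCND1, CKS2, CDK4 and CCNB1, did not overlap with each other or with the member after them. The order below CCND1 rested on the length used. With the length of 1 coding transcript CCND1 stayed highest (175 CPM per kilobase), CDK4 (122) stood above CKS2 (118), and CKS1B (101) stood above CCNB1 (71.7). Without division by length CKS2 averaged 72.3 CPM, below CDK4 (253) and CCNB1 (155).

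**Figure D1:**
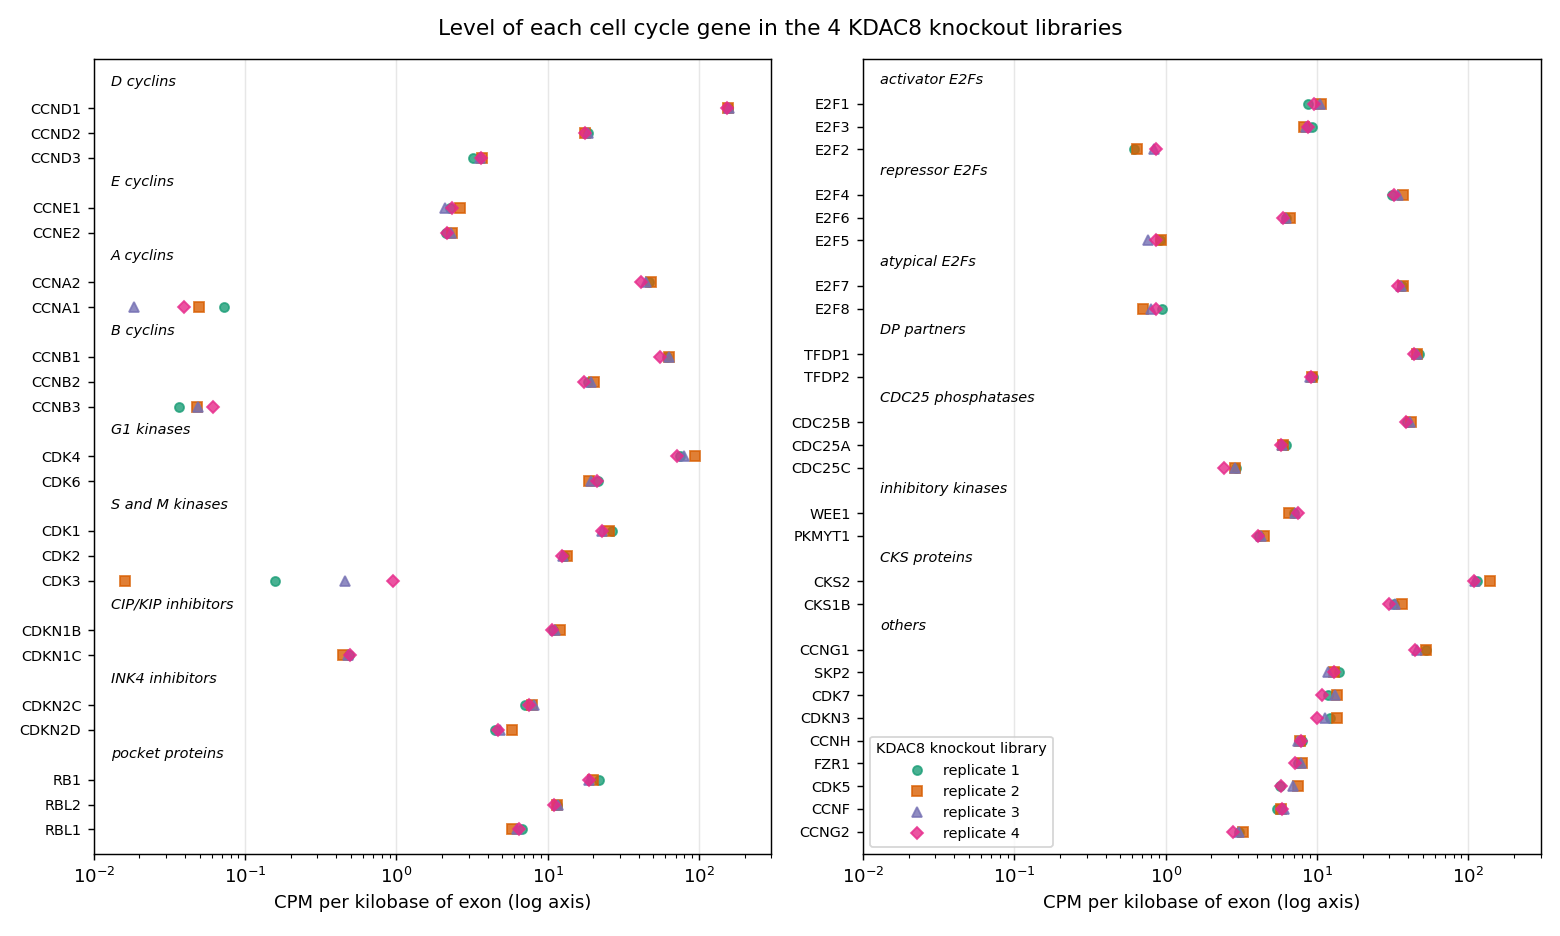
CPM per kilobase of exon (log axis) for each of the 48 genes, ordered by role, with 1 symbol per KDAC8 knockout library. CCND1 sits at 153 to 159 in all 4 libraries, most other genes lie between 2 and 100, and the 4 symbols separate widely for CCNA1, CCNB3 and CDK3 only.

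D cyclins were dominated by CCND1. CCND1 (ENSG00000110092, chromosome 11, 69641087 to 69654474, plus strand), the RAS-responsive D cyclin, had 751, 756, 767 and 741 CPM in replicates 1 to 4. It had the smallest range of the 48 genes, 1.04 times between its highest and lowest library. At 30360 to 34752 counts it still passed the chi-square test of the libraries given below (adjusted p = 0.000323). CCNH, with a wider range of 1.06 times and fewer counts, did not (adjusted p = 0.289). CCND2 had 129 ± 3.51 CPM and CCND3 18.5 to 21.3 CPM. Per kilobase CCND1 held 87.8% ± 0.0901 of the summed D cyclin level, CCND2 stood at 18.1 ± 0.490 and CCND3 at 3.52 ± 0.225, and the ranges of the 3 genes did not overlap. The log2 ratio of CCND1 to CCND2 within a library was 3.11 ± 0.031, an 8.64-fold difference. That of CCND1 to CCND3 was 5.47 ± 0.096 (44.4-fold), or 17.9-fold with the length of 1 coding transcript per gene. Both ratios had the same sign in 4 of 4 libraries. Ratios were tested by flipping their signs in every possible way (an exact permutation test, two-sided), and with 4 libraries no pair can reach 0.05. Of the 26 pairs compared, 24 had 1 direction in every library, each at the smallest p this exact test allows, which is 0.135 after Benjamini-Hochberg adjustment over the pairs.

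The kinases that D cyclins activate were both abundant, and their order rested on gene length. CDK4 (ENSG00000135446, chromosome 12, 57747727 to 57756013, minus strand) had 237, 300, 252 and 225 CPM in replicates 1 to 4, highest in replicate 2. CDK6 had 261, 231, 235 and 259 CPM and was lowest in replicate 2. The CPM ranges of the 2 genes overlapped. Per kilobase CDK4 stood at 79.9 ± 10.3 and CDK6, whose annotated exons span 12260 bases, at 20.1 ± 1.28. CDK4 thus held 79.7% ± 2.87 of the summed level, a log2 ratio of 1.98 ± 0.26 that was above 0 in all libraries. Without division by length the log2 ratio averaged 0.031, positive in replicates 2 (0.37) and 3 (0.097) and negative in replicates 1 (-0.14) and 4 (-0.20). CDK4 shares 1369 exonic bases with TSPAN31 on the opposite strand (17.5 ± 0.361 CPM). Strand use in the counting is not stated in the sources used here. In replicate 1 the expected counts of both rows were not whole, at 9574.8 for CDK4 and 692.2 for TSPAN31. The division of reads between these rows was not tested.

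E cyclins, the partners of CDK2 at the start of S phase, were among the lower detected members. CCNE1 had 5.74, 6.67, 5.32 and 5.91 CPM in replicates 1 to 4. CCNE2 had 9.78 ± 0.470 CPM. Per kilobase the 2 genes could not be told apart, at 2.32 ± 0.222 for CCNE1 and 2.22 ± 0.107 for CCNE2, with ranges that overlapped. CCNE1 was the higher in 3 of 4 libraries (log2 ratio 0.056 ± 0.14, exact sign-flip p = 0.5, adjusted p = 0.5). The sign turned with 1 coding transcript (-0.025), and without division by length CCNE2 was the higher in 4 of 4 libraries (-0.73). CCNE2 shares 1629 of its 4397 exonic bases with INTS8 on the opposite strand, which stood at 53.7 ± 3.63 CPM.

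The S phase and mitotic cyclins were expressed through the somatic paralogs. CCNA2 had 130, 135, 125 and 116 CPM in replicates 1 to 4, lowest in replicate 4. It shares 254 exonic bases with EXOSC9 on the opposite strand (43.3 ± 2.99 CPM). CCNA1, the A cyclin of the male germ line, had 7, 5, 2 and 4 counts, or 0.173, 0.119, 0.0442 and 0.0946 CPM. On counts summed over the libraries CCNA2 was 1024-fold above CCNA1 per kilobase (exact binomial 95% interval 648 to 1728). CCNB1 had 156, 161, 163 and 142 CPM, and again replicate 4 was the lowest. CCNB2 had 52.7 ± 3.48 CPM, and per kilobase CCNB1 (60.8 ± 3.72) exceeded CCNB2 (18.8 ± 1.24) in every library, by 3.23-fold, or by 2.11-fold with the length of 1 coding transcript. CCNB3, the meiotic B cyclin, had 8, 11, 12 and 14 counts (0.198, 0.261, 0.265 and 0.331 CPM). CCNB1 was 1243-fold above CCNB3 on summed counts per kilobase (interval 929 to 1705). Without division by length the mean ratio within a library was 598.

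The kinases of S phase and mitosis were led by CDK1. CDK1 (ENSG00000170312, chromosome 10, 60778331 to 60794852, plus strand) had 104, 99.4, 89.1 and 89.8 CPM in replicates 1 to 4. CDK2 had 48.2 to 52.5 CPM. Per kilobase CDK1 stood at 24.3 ± 1.85 and CDK2 at 12.8 ± 0.472, a log2 ratio of 0.92 ± 0.083 with CDK1 higher in all libraries. The remaining cyclins were CCNF and the G cyclins. CCNF, the F-box cyclin, had 36.6 ± 1.69 CPM. CCNG1, a p53-induced cyclin, had 151 ± 13.3 CPM and stood 16.1-fold above CCNG2 (22.6 ± 1.28 CPM) per kilobase, and 6.68-fold without division by length.

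CDK3 was the only member whose libraries differed by more than 1.5 times beyond counting noise, and its reads were shared with another row. CDK3 (ENSG00000250506, chromosome 17, 76000906 to 76005999, plus strand), a kinase reported to act at the exit from quiescence, had expected counts of 11.5, 1.22, 37.3 and 72.4 in replicates 1 to 4. These are 0.285, 0.0290, 0.824 and 1.71 CPM, a range of 59.1 times with replicate 4 highest and replicate 2 lowest. Of the 1803 annotated exonic bases of CDK3, 1644 also belong to TEN1-CDK3, a readthrough gene on the same strand. TEN1-CDK3 had 85.0, 115, 82.8 and 40.0 expected counts, highest where CDK3 was lowest and lowest where CDK3 was highest. The sum of both rows was 96.5, 116, 120 and 112 counts, or 2.61 ± 0.158 CPM, with a range of 1.15 times. The sum did not pass the test that CDK3 passed (chi-square test of homogeneity, adjusted p = 0.777 for the sum and 1.36e-19 for CDK3). The sum was formed after the values had been seen. The level of CDK3 by itself is therefore uncertain in this table.

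**Figure D2:**
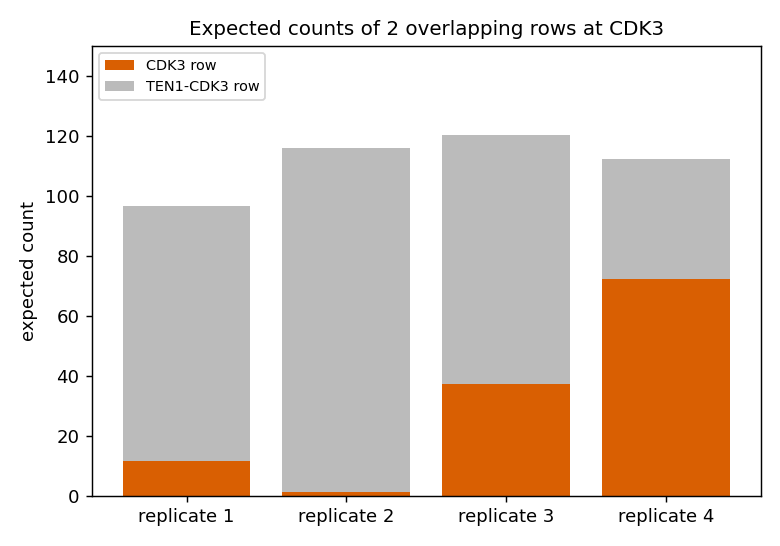
Expected counts of the CDK3 row (orange) stacked under those of the overlapping TEN1-CDK3 readthrough row (grey) in each KDAC8 knockout library. The CDK3 part runs between 1.22 and 72.4, while the total height stays between 96.5 and 120.

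The CDK-activating kinase and CDK5 were also expressed. CDK7, the kinase that phosphorylates other CDKs, had 29.7 ± 3.17 CPM, its cyclin partner CCNH 47.0 ± 1.24 CPM and the assembly factor MNAT1, a gene outside the set, 29.6 ± 2.68 CPM. Per kilobase of exon CDK7 (12.3) exceeded CCNH (7.74) in 4 of 4 libraries. The order turned with the length of 1 coding transcript, to a log2 ratio of -0.73, since the exons of CCNH join to 6070 bases and its coding transcript has 1378. CDK5, a kinase best known from neurons, had 16.7, 22.0, 20.4 and 16.9 CPM in replicates 1 to 4, higher in replicates 2 and 3 than in 1 and 4. Its activator CDK5R1 stood at 4.86 ± 0.555 CPM and CDK5R2 at 0.147 ± 0.0479 CPM. CDK5 shares 331 exonic bases with SLC4A2 on the opposite strand (100.5 ± 8.12 CPM).

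Of the CIP/KIP and INK4 inhibitors in the set, CDKN1B stood highest per kilobase (11.2 ± 0.621), followed by CDKN2C (7.65 ± 0.461). CDKN1B, which encodes p27 and restrains CDK2, had 30.3, 33.7, 31.5 and 29.8 CPM. CDKN1C, its imprinted paralog, was close to the detection threshold at 1.18 ± 0.0615 CPM, with 46 to 54 counts per library. CDKN1B held 95.9% ± 0.41 of the summed level of the pair per kilobase. CDKN2C, an INK4 inhibitor of CDK4 and CDK6, had 23.4, 26.1, 27.0 and 25.003 CPM, lowest in replicate 1. CDKN2D, the other INK4 gene of the set, had 6.78, 8.74, 7.26 and 7.07 CPM and was highest in replicate 2. CDKN2C was above CDKN2D in every library, 1.55-fold per kilobase and 3.41-fold without division by length. Of 3 other CDK inhibitors, CDKN1A, the p53 target that encodes p21, had 75.6 ± 3.73 CPM. No read was assigned to the INK4 genes CDKN2A and CDKN2B in any library, and 0 counts over the 4 together allow at most 0.0176 CPM. CDKN3, a phosphatase that acts on CDKs, had 22.5, 24.7, 20.6 and 18.4 CPM in replicates 1 to 4, and 11.7 ± 1.47 CPM per kilobase.

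All 3 pocket proteins were present, in the order RB1, RBL2, RBL1. RB1 (ENSG00000139687, chromosome 13, 48303726 to 48599436, plus strand), the retinoblastoma gene, had 140, 128, 121 and 122 CPM in replicates 1 to 4, highest in replicate 1. RBL2 had 83.9 ± 2.25 CPM and RBL1 37.6 ± 2.33 CPM. Per kilobase the levels were 19.8 ± 1.37 for RB1, 11.5 ± 0.308 for RBL2 and 6.31 ± 0.391 for RBL1, and no ranges overlapped. RB1 held 52.7% ± 1.37 of the summed level. The log2 ratio was 1.65 ± 0.099 for RB1 to RBL1, 0.79 ± 0.091 for RB1 to RBL2 and -0.86 ± 0.10 for RBL1 to RBL2, each with 1 sign in 4 of 4 libraries and under all 3 choices of length.

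Among the E2F factors E2F7 and E2F4 stood highest. E2F7 (ENSG00000165891, chromosome 12, 77021247 to 77065580, minus strand), an atypical E2F that represses E2F target genes, had 230, 233, 226 and 217 CPM in replicates 1 to 4. E2F8, its paralog, had 3.88, 2.92, 3.31 and 3.55 CPM. E2F7 was 43.8-fold above E2F8 per kilobase (66.7-fold without division by length) and held 97.8% ± 0.285 of the summed level. E2F4, which binds promoters with RBL1 and RBL2 in resting cells, had 112, 132, 123 and 116 CPM. Per kilobase E2F4 stood at 33.7 ± 2.35, E2F6, a repressor that acts without pocket proteins, at 6.27 ± 0.271 and E2F5 at 0.866 ± 0.0743. E2F4 was 38.95-fold above E2F5, or 19.4-fold with the length of 1 coding transcript and 23.5-fold with none. E2F5 shares 969 exonic bases with C8orf59 on the opposite strand (22.3 ± 2.11 CPM).

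The activator E2Fs, E2F1, E2F2 and E2F3, stood below E2F7 and E2F4 per kilobase. E2F1 (ENSG00000101412, chromosome 20, 33675683 to 33686404, minus strand) had 21.9, 26.7, 26.3 and 23.8 CPM in replicates 1 to 4, lowest in replicate 1. E2F3 had 44.8 ± 2.43 CPM. Per kilobase E2F1 (9.86 ± 0.891) and E2F3 (8.67 ± 0.470) had ranges that overlapped. E2F1 was the higher in 3 of 4 libraries (exact sign-flip p = 0.25, adjusted p = 0.26), and without division by length E2F3 was the higher in all 4. E2F2 had 3.39, 3.51, 4.57 and 4.71 CPM, lower in replicates 1 and 2 than in replicates 3 and 4. It was the most variable of the detected members, with a range of 1.39 times at 137 to 207 counts (chi-square test, adjusted p = 0.00445). With the spread usual for genes of the same level added, as described below, E2F2 was not called. E2F1 exceeded E2F2 in all libraries, 13.4-fold per kilobase and 6.15-fold without division by length. Both promoters hold TTTGGCGC, as printed above. DP proteins, the dimer partners that E2F1 to E2F6 need to bind DNA, were represented by TFDP1 with 175, 171, 171 and 164 CPM and TFDP2 with 109 ± 2.69 CPM. TFDP1 was 4.96-fold above TFDP2 per kilobase of all exons, and 1.39-fold with 1 coding transcript, since the exons of TFDP2 join to 11897 bases.

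Regulators of CDK phosphorylation were led by CDC25B and WEE1. CDC25 phosphatases remove the inhibitory phosphates of CDKs that WEE1 and PKMYT1 add. CDC25B had 170, 181, 178 and 168 CPM in replicates 1 to 4. It held 82.2% ± 0.682 of the summed CDC25 level per kilobase. CDC25A had 24.5 ± 0.828 CPM, with a log2 ratio to CDC25B of -2.76 ± 0.070, 6.79-fold lower. CDC25C had 9.70, 9.59, 9.60 and 8.07 CPM, with replicate 4 below the others, and stood 14.6-fold below CDC25B per kilobase. WEE1 had 65.5, 60.1, 65.9 and 69.4 CPM, and was lowest in replicate 2. PKMYT1 had 21.3 ± 0.887 CPM, and WEE1 exceeded it in all libraries, by 1.67-fold per kilobase of exon, 2.37-fold with 1 coding transcript and 3.06-fold without division by length. PKMYT1 shares 1233 exonic bases with PAQR4 on the opposite strand (27.4 ± 2.18 CPM).

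CKS proteins, small subunits that dock CDKs to their substrates, were among the highest per kilobase. CKS2 had 69.5, 84.9, 68.0 and 66.7 CPM in replicates 1 to 4, with replicate 2 above the others. CKS1B, which also links SKP2 to CDKN1B, had 76.4 ± 6.36 CPM. Per kilobase CKS1B was 3.60-fold below CKS2 (32.7 against 117.9). That fold shrank to 1.17 with 1 coding transcript, and without division by length CKS1B was the higher in 4 of 4 libraries. SKP2, the ubiquitin ligase subunit that targets CDKN1B, had 49.5 ± 3.35 CPM. FZR1, the activator that keeps the anaphase-promoting complex active in G1, had 44.0 ± 2.22 CPM.

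**Figure D3:**
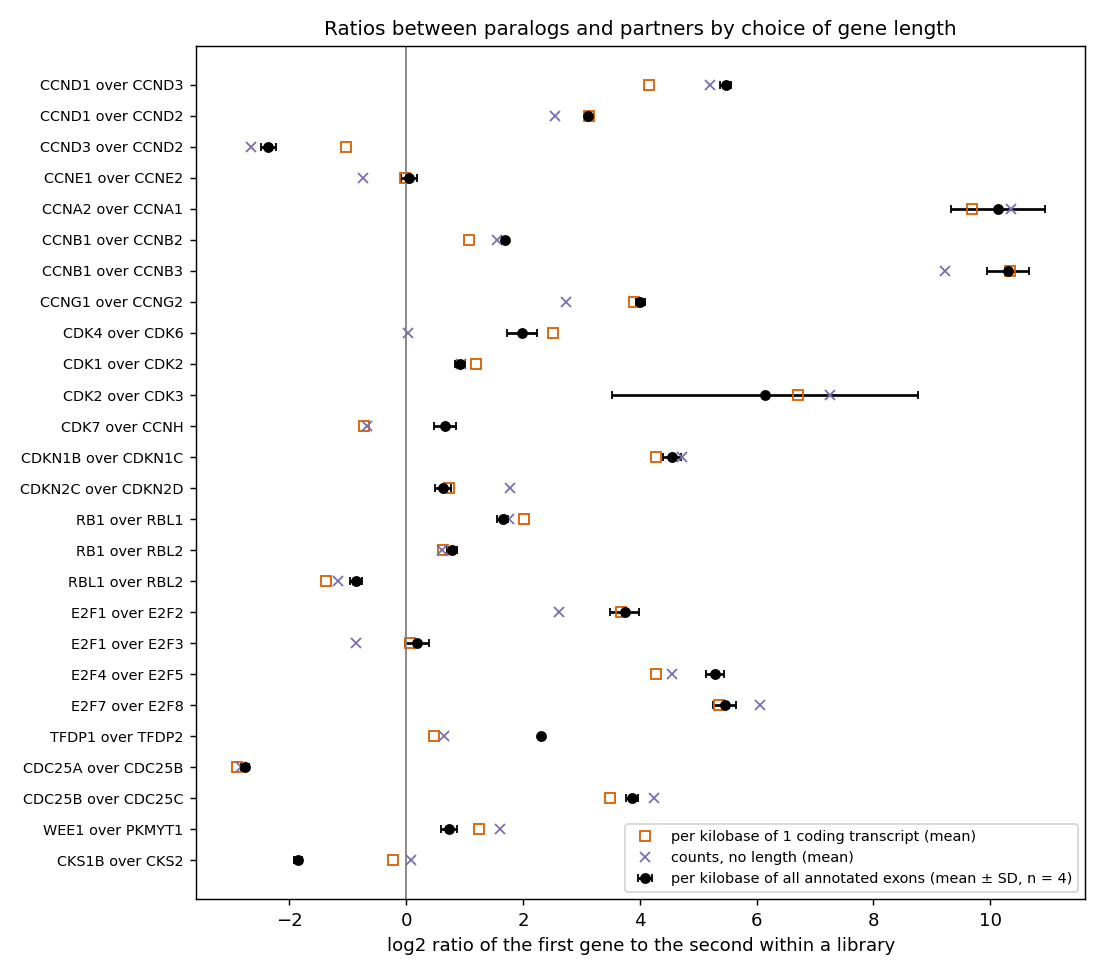
Log2 ratio of the first gene to the second within a library, for 26 pairs. Black points with bars are means ± SD over the 4 KDAC8 knockout libraries per kilobase of all exons, orange squares use the length of 1 coding transcript, and purple crosses use no length. CDK7 over CCNH, CDK4 over CDK6, TFDP1 over TFDP2 and CKS1B over CKS2 move furthest from their black points. CCND1 over CCND2 and CCND3, CCNA2 over CCNA1 and CCNB1 over CCNB3 stay far above 0 on every scale. CCNB1 over CCNB2 also stays above 0, at 1.08 with 1 coding transcript.

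Genes that act around the set were expressed as well. All 17 genes of the G1/S list of E2F targets were detected, with a median of 26.2 CPM per kilobase, led by the replication clamp PCNA (79.8) and the helicase subunit MCM7 (62.3). All 14 G2/M genes were detected, with a median of 21.1, led by TOP2A (78.7), which untangles DNA, and UBE2C (68.8), a ubiquitin carrier of the anaphase-promoting complex. Among 8 MuvB and cell cycle transcription factor genes all were detected, FOXM1 (22.6) and the MuvB subunit RBBP4 (14.2) being highest. In the list of 7 ubiquitin ligase partners the highest were CDC20 (77.9), the mitotic activator of the anaphase-promoting complex, and CUL1 (21.9). Of 24 other cyclins, kinases and activators 22 were detected, the highest being CCNI (108) and CCNY (25.3), and CDK5R2 and CDK18 (0.561 ± 0.065 CPM) were not. In the chi-square test of the 4 libraries described next, which 59.2% of all genes tested and 67.3% of those detected passed, the lists gave 15 of 17 G1/S targets, 13 of 14 G2/M genes, 5 of 8 MuvB and transcription factor genes, 6 of 7 ligase partners and 19 of 23 other cyclins and kinases. With the trended dispersion added, 0 genes of these lists passed.

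Most members differed between the libraries, by little. Of the 47 members that averaged at least 10 counts, 33 passed a chi-square test for unequal levels at an adjusted p of 0.05 (Benjamini-Hochberg, across every gene in the test). Of all 16790 genes tested, 59.2% passed, and of genes at 1 CPM or more in all libraries 67.3% did, against 32 of the 45 detected members (71.1%). The median range between the highest and the lowest library was 1.15 times for the detected members and 1.17 times for detected coding genes. A call together with a range of at least 1.5 times was made for 1 member, CDK3, and for 12.3% of all genes tested. CCNA1 and CCNB3 also had such a range, at 2 to 14 counts. CCNA1 averaged too few counts to be tested, and CCNB3 did not pass the chi-square test (adjusted p = 0.748). With the spread usual for genes of the same level added to the counting noise (the trended negative binomial dispersion of edgeR), 1 of 47 members was called, again CDK3, against 1.54% of all genes. The other members called by counting noise alone include CDK4 (adjusted p = 2.95e-113), CKS2 (3.37e-26) and CDKN3 (1.24e-08). Of the 6 detected members with the widest spread, 5 were called (E2F2, CDK5, CDKN3, CDK4 and CDKN2D) and E2F8 was not (adjusted p = 0.16).

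The highest and the lowest library were spread unevenly over the set. Replicate 2 gave the highest value for 24 of the 45 detected members and replicate 4 the lowest for 23, against 36.2% and 33.6% of the 11570 coding genes. The median log2 deviation from the gene mean was 0.061 in replicate 2 and -0.055 in replicate 4 for the members, and 0.024 and -0.030 for coding genes. Of the 12 members with a CHR, 8 had their lowest value in replicate 4, against 19 of all 39 members with a promoter window. Replicate 2 was the highest for 6 of the 12, and for 20 of the 39. Of the 7 members with an E2F motif, 5 were highest in replicate 1, against 12 of the 39 and 25.7% of coding genes. CDK1 and E2F3 carry both motifs, and both were highest in replicate 1. The 39 members include both classes and also CCNA1, CCNB3 and CDK3, which were not detected. These differences between motif classes were not tested, and the library order of all genes with each motif was not examined.

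Transcript length and base composition moved with these deviations. Across the 45 detected members, Spearman's rho between the log2 deviation and the length of the coding transcript was 0.25, -0.64, 0.15 and 0.39 in replicates 1 to 4. Across the coding genes it was 0.33, -0.51, -0.21 and 0.42, with the opposite sign in replicate 3. Between the deviation and the GC content of the transcript, rho was -0.59, 0.070, 0.46 and 0.19 across the members. Across coding genes it was -0.69, 0.28, 0.54 and -0.042, with the opposite sign in replicate 4. These are correlations across genes, which share the 4 libraries and are not independent. CKS2 (613 bases) and CDK4 (2076 bases) stood high in replicate 2, where CDK6 (11612 bases) and E2F3 (4749 bases) stood low. Other members went against this order in replicate 2. CCNG2 (5526 bases, deviation 0.091) and FZR1 (5212 bases, 0.072) stood above 0, and CDKN1C (1936 bases, -0.11) and WEE1 (2799 bases, -0.12) below it. The part of length and base composition in the differences between libraries was not tested.

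**Figure D4:**
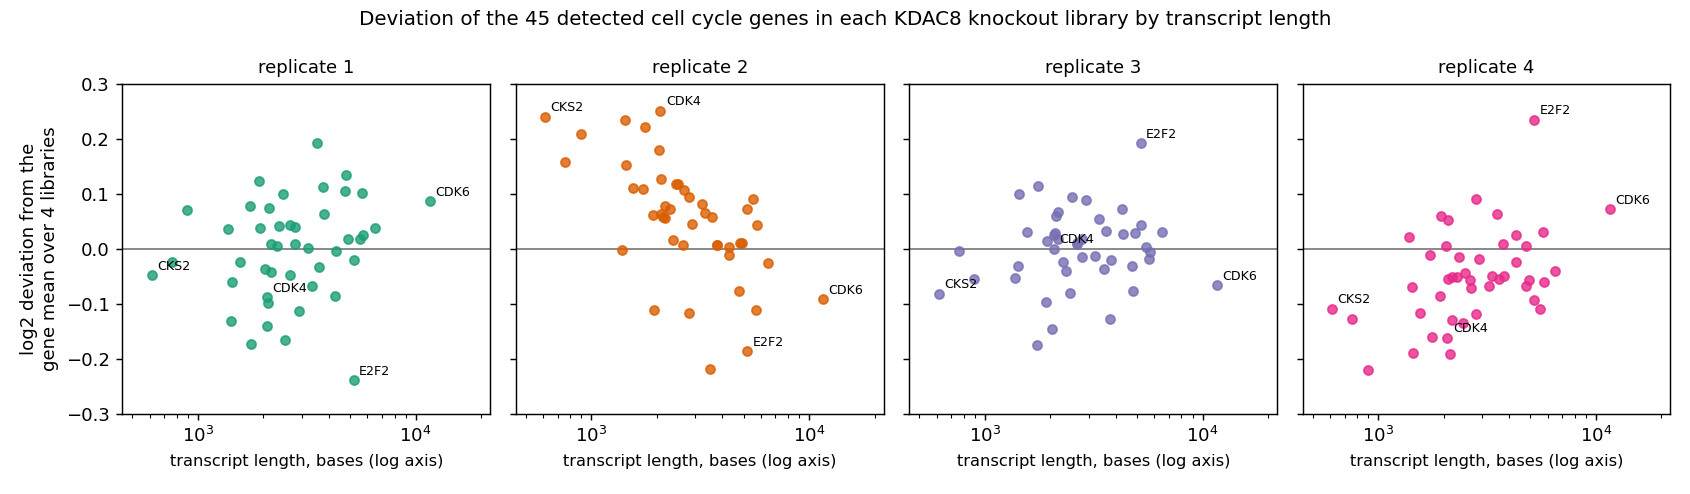
Log2 deviation of each of the 45 detected genes from its mean over the 4 KDAC8 knockout libraries, against the length of its coding transcript in bases (log axis), 1 panel per library. In replicate 2 the points slope downward (Spearman's rho -0.64), with CKS2 and CDK4 above 0 and CDK6 below it, and in replicate 4 they slope upward (rho 0.39).

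Counting could blur some members. Exons of 20 of the 48 overlap another gene, 3 of them on the same strand (CDK3, CCND2 and WEE1). The small RNA gene within WEE1 had 0 counts in every library, and the gene that overlaps CCND2 on its strand has no count row. On the opposite strand, CCNH shares 771 exonic bases with RASA1 (184.6 ± 5.53 CPM) and RBL2 shares 610 with AKTIP (16.2 ± 1.05 CPM). CDC25C shares 293 with FAM53C (48.1 ± 2.68 CPM). In replicate 1 the expected counts were 1944.53 for CCNH and 7680.47 for RASA1, and 376.75 for CCNE2 and 2301.25 for INTS8. CDC25C had whole counts in every library. How far reads were divided between the rows of such pairs was not tested. The table holds 19 rows named as pseudogenes of members, of which 17 were at 0 in every library. The other two were E2F3P2 at 0.613 CPM, which is 1.37% of the level of E2F3, and CCNB2P1 at 0.0296 CPM.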

How the data were processed

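The authors deposited an expected count per Ensembl gene, and RSEM 1.3.3, Bowtie2 2.5.4, Trimmomatic 0.39, DESeq2 1.46.0 and the build GRCh38 are named per the submitters' processing notes. How each tool was used, the annotation release and the strand setting are not stated there. In each library 10.6% to 11.9% of all rows hold a value that is not whole. All 4 columns matched a sample by title, and 0 were left unused.

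Counts were rounded for tests. CPM used TMM effective library sizes (edgeR 4.0.16), with DESeq2 1.42.0 size factors as an alternative. Lengths and positions came from GENCODE release 29, which holds 94.0% of the gene IDs and all 48 members, and may differ from the release used upstream. The single coding transcript was the best-ranked APPRIS principal one, and the longest among equals. For each gene averaging at least 10 counts, equality of the 4 libraries was tested by chi-square (3 degrees of freedom), adjusted across those genes, and the script was checked on simulated data. Ratios within a library used an exact sign-flip permutation test. Detection meant at least 1 CPM in every library. Members, pairs, lists and motifs were chosen with earlier results of these data known. Values in every library are given for the leading member of each of 16 role groups, members under 1 CPM, the 6 most variable detected members and members with 1 library apart. Intervals cover counting error only.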

Additional observations from a re-analysis of the deposited data

Results flagged for a closer look

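For 2 of the 48 genes, 1 library stood apart from the other 3 by a gap that, as a share of the gene's whole range, passed Dixon's 95% critical value. Chance exceeds that value in about 1 of 20 groups, and 2 of 48 is close to that rate. CDC25C was low in replicate 4, at 8.07 CPM, with a gap of 0.937 of its range. The chi-square test of its 4 libraries missed the threshold (adjusted p = 0.0622). CKS2 was high in replicate 2, at 84.9 CPM, with a gap of 0.844 of its range, and the other 3 libraries lay between 66.7 and 69.5 CPM. Replicate 2 was also the library in which short transcripts stood high, and the part of length in the CKS2 value was not tested.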

How the results depend on the processing

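No paired analysis was possible because the labels give 1 group. The 33 varying members numbered 35 with DESeq2 size factors, 30 with total counts, 31 with no count filter and 1 with the trended dispersion. Of all genes tested, 59.4%, 60.2%, 34.8% and 1.54% passed in these 4 settings, against 59.2% in the main one. Leaving out 1 library gave 28 to 36, with 29, 26, 31 and 27 of the 33 kept without replicates 1, 2, 3 and 4. The shares of all genes tested that passed were then 49.3%, 48.8%, 55.9% and 46.8%, in the same order. Without replicate 2 the call was lost for CKS2, CCND3, CCNG2, CDKN1B, CDKN2D, RBL1 and WEE1, and without replicate 4 for CCNB1, CCND2, CCNG2, E2F7, FZR1 and TFDP1. Without replicate 1 it was lost for CCND3, CCNF, CDKN2C and E2F3, and without replicate 3 for CCNF and CDKN2C. The count with a range of 1.5 times or more was 1, CDK3, in each of these settings. Detected members numbered 45 in all settings but 1 CPM per kilobase, which gave 41. Of the 26 pairs, 20 had the first gene higher in all libraries, 19 with 1 coding transcript, 19 with no length and 20 to 21 without 1 library. Reversed signs of the log2 ratio came with the length choice. With 1 coding transcript they were -0.025 for CCNE1 to CCNE2 and -0.73 for CDK7 to CCNH. With no length they were -0.73 for CCNE1 to CCNE2, -0.67 for CDK7 to CCNH, -0.86 for E2F1 to E2F3 and 0.084 for CKS1B to CKS2. The same leading member held in 16 of 16 role groups without any 1 library, 15 with 1 coding transcript and 13 with no length. Depth limits CCNA1 and CCNB3, at 2 to 14 counts per library.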
